A study of Mus musculus with 30 samples.

Results

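In mouse embryonic stem (ES) cells, 39380 regions carried 5-formylcytosine (5fC) in both Tdg genotypes and had no 5fC region once the cells had formed embryoid bodies (EB). They are called ES-only 5fC regions here. They were chosen from the pooled region list of fl/fl ES cells, on chromosomes 1 to 19 and X, as the 5fC regions that shared at least 1 bp with a 5fC region of Tdg -/- ES cells and none with a 5fC region of fl/fl EB. They made up 69.07% of the 57016 regions of that list and covered 24.15 Mb. The choice used the 5fC lists alone, so the 5hmC and p300 lists are readouts that it did not use, and the 5fC calls themselves are description.

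5fC is an oxidised form of the methylated cytosine of DNA. TET enzymes oxidise 5-methylcytosine to 5-hydroxymethylcytosine (5hmC) and then to 5fC, and thymine DNA glycosylase, the product of Tdg, excises 5fC so that base excision repair can put back an unmodified cytosine. 5hmC is the more abundant and longer-lived of these bases, and in ES cells both bases are known to be found at enhancers. p300 is a histone acetyltransferase and coactivator, and its binding is widely used to mark enhancers.

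The lists compare ES cells whose Tdg alleles are floxed (fl/fl, the control) with ES cells in which Tdg is deleted (-/-), both of the C57BL/6-ICR strain, and with EB made from the fl/fl cells. EB are clumps of ES cells that have started to differentiate. Per the labels, the ES cells grew without feeders on gelatin with LIF and the inhibitors CHIR99021 and PD0325901, and EB grew in suspension without these 3 factors until day 5. 5fC and 5hmC were enriched by selective chemical labelling and p300 by chromatin immunoprecipitation. Each list pools its libraries, 2 for each 5fC or 5hmC list and 3 for each p300 list, 18 of the 30 libraries of the series. EB were fl/fl only, and no p300 list or RNA table of EB was used here. A mark missing from EB in every cell and a mark missing in some of the cells cannot be told apart, since EB are mixtures of cells.

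The 8 lists held between 24731 (EB 5fC) and 174655 (Tdg -/- 5hmC) regions. Each group has 1 pooled list, so no value here has a replicate spread and no test between groups was possible. Intervals are 95% and cover counting error over regions only, and regions are not biological replicates. The depth of the libraries is unknown. Scores began at 60.92 for fl/fl ES 5fC, the list the regions were drawn from, and at 50 for the other 7. Why that list starts higher was not tested. In the RNA of the ES cells, Tdg stood at 22.1 FPKM (fragments per kilobase, scaled to the reads mapped) in the fl/fl table and at 9.48 in the Tdg -/- table, so transcript was still listed in the deleted cells. All 6 ES cell markers read, which include Pou5f1, Nanog and Sox2, lay between 67.4 and 630 FPKM in both tables. Of 17 markers of endoderm, mesoderm, neuroectoderm, trophectoderm and fibroblasts, the highest was Vim, an intermediate filament gene that many cultured cells express, at 16.3 and 10.7 FPKM, and none was at 0. Their summed levels in fl/fl and Tdg -/- cells were 1.54 and 1.47 for endoderm, 0.703 and 0.487 for mesoderm, 7.19 and 7.39 for neuroectoderm, 5.15 and 4.93 for trophectoderm, and 19.2 and 12.8 for fibroblasts.

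Over the whole fl/fl ES 5fC list, 86.7% of regions overlapped Tdg -/- 5fC and 82.1% did not overlap EB 5fC. The regions that met both conditions had a median width of 551 bp, with quartiles at 453 and 702 bp. Their scores in the fl/fl list, minus 10 times the log10 of the caller's p-value, ran from 60.92 to 1756.43 with a median of 96.06. The other regions were 10059 with 5fC in all 3 lists, called persistent 5fC regions here, 7453 in the fl/fl list alone and 124 shared with EB but not with Tdg -/- cells. Persistent regions were wider and scored higher, with medians of 628 bp and 114.3, and regions in the fl/fl list alone were narrower and scored lower, with medians of 424 bp and 73.21. ES-only regions made up 60% of the lowest-scoring 10% of the list and 66.9% of the highest-scoring 10%. They thus came from the whole range of scores. At the lowest scores fewer regions met the Tdg -/- condition, which 69.8% of the lowest-scoring 10% and 99.7% of the highest-scoring 10% did.

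ES-only regions lay at a wide range of distances from EB 5fC, and no other regions were measured to set beside them. The distance to the nearest EB 5fC region had a median of 11550 bp, with quartiles at 3967 and 29748.5 bp. It was under 1 kb for 3288 regions (8.35%) and under 10 kb for 46.2%. At the edge of the rule, 315 ES-only regions had EB 5fC under 100 bp away, and 207 regions were left out for sharing under 100 bp with it. Those nearest the limit on the inside were chr7:146769218-146769783 and chr9:120639995-120640451, each 1 bp from an EB 5fC region, and chr2:168797445-168797983 at 2 bp, with scores of 65.98, 70.82 and 66.67. Nearest on the outside were chr15:74357672-74359083 and chr9:57853870-57854525, sharing 1 bp each, and chr11:101752081-101752465, sharing 2 bp, with scores of 474.15, 226.69 and 91.34. All positions are on the mm9 build as the lists give them.

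Nearly all ES-only 5fC regions lay on 5hmC in the ES cells, and about as many lay on 5hmC in EB as did not. Of the 39380 regions, 36548 overlapped 5hmC of fl/fl ES cells (92.8%, interval 92.5 to 93.1), against 89.4% of the whole fl/fl 5fC list. In Tdg -/- ES cells 37955 did so (96.4%, interval 96.2 to 96.6), against 92.8% of the whole list. In EB, 21012 overlapped 5hmC (53.4%, interval 52.9 to 53.8), against 54.6% of the whole list. ES-only regions make up most of that list, so their share lies near its share. The other classes lay on both sides, with EB 5hmC at 82.4% of persistent regions and at 23.4% of regions in the fl/fl list alone (interval 22.5 to 24.4).

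Among the 36548 regions that carried 5hmC in fl/fl ES cells, 19924 also lay on EB 5hmC (54.5%, interval 54 to 55), against 57.3% of the whole list and 27.5% of the regions in the fl/fl list alone under the same condition. The other 16624 had 5hmC in the ES cells where 5fC was called and neither base called in EB. Of the 2832 ES-only regions without fl/fl 5hmC, 1088 lay on EB 5hmC (38.4%, interval 36.6 to 40.2). Under the same condition the share was 31.4% of the whole list, 73.1% of persistent regions and 16.2% of regions in the fl/fl list alone. A missing 5fC call in EB thus went with a missing 5hmC call at some ES-only regions and with a 5hmC call at others.

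Sorted by all 3 5hmC lists, 19729 ES-only regions (50.1%) had 5hmC in both ES genotypes and EB, and 16226 (41.2%) had it in both ES genotypes and not in EB. Another 2593 (6.58%) had it in 1 ES list, with or without EB. EB alone gave 5hmC at 217 regions (0.551%), and 615 (1.56%) had no 5hmC region in any list. The main division was thus between the first 2 classes, which together held most ES-only regions. Over the whole fl/fl 5fC list the classes above, in the same order, held 50.6, 36.3, 8.33, 0.903 and 3.83%. The first 2 classes thus held most of the whole list as well.

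**Figure D1:**
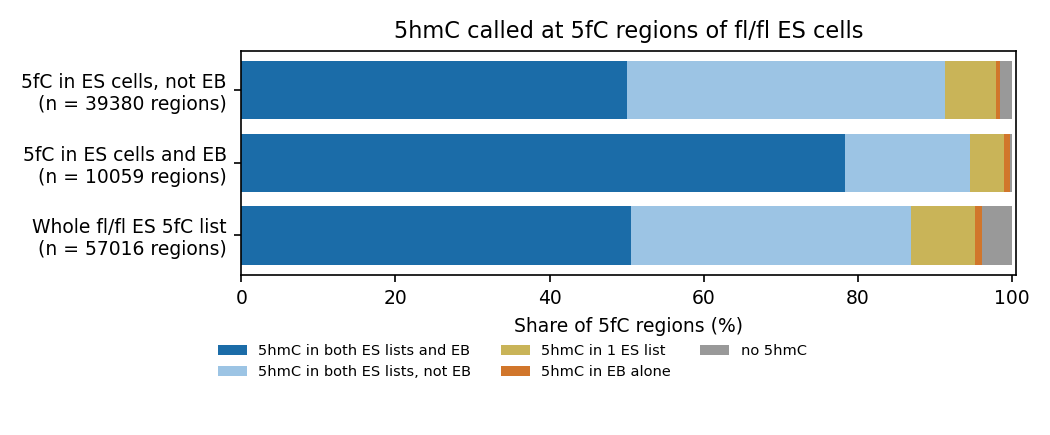
Share of 5fC regions of fl/fl ES cells (x axis, percent) by the lists that held a 5hmC region at them, for the 39380 ES-only regions, the 10059 persistent regions and the whole list of 57016. The bar for 5hmC in both ES lists and EB reaches 50.1% for ES-only regions and 78.3% for persistent regions.

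Persistent 5fC regions kept EB 5hmC more often. Of the 9580 that lay on fl/fl ES 5hmC, 7941 lay on EB 5hmC (82.9%, interval 82.1 to 83.6), so the ES-only share was lower by 28.4 percentage points (difference -28.4, interval -29.3 to -27.5). The difference was below 0 on 20 of 20 chromosomes. It was -28.8 points after both kinds of region were weighted to the same mix of 5fC width and score, in 25 groups made from the quintiles of each. Part of this difference is built into the comparison, because persistent regions have EB 5fC by their definition and 77% of the EB 5fC list (19047 of 24727 regions, interval 76.5 to 77.5) lay on EB 5hmC. In the ES cells the classes differed far less: fl/fl 5hmC was at 92.8% of ES-only and 95.2% of persistent regions, a difference of -2.43 points (interval -2.91 to -1.93).

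By chromosome, between 49.9% (chromosome 4) and 59.3% (chromosome 10) of the ES-only regions on fl/fl ES 5hmC lay on EB 5hmC among the autosomes. Persistent regions ranged from 76.6% (chromosome 17) to 90.1% (chromosome 16), so the lowest autosome of the persistent class was above the highest of the ES-only class. The X chromosome held 76 ES-only regions, and of the 60 on fl/fl 5hmC 73.3% lay on EB 5hmC.

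**Figure D2:**
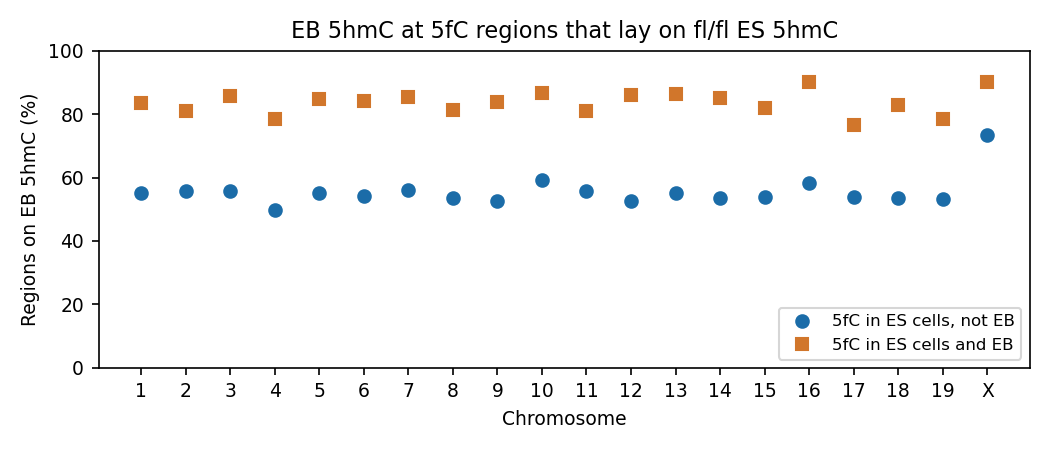
Percent of 5fC regions on fl/fl ES 5hmC that also lay on EB 5hmC (y axis), by chromosome (x axis), for ES-only regions (circles) and persistent regions (squares). Circles lie between 49.9 and 59.3% on the autosomes and squares between 76.6 and 90.1%, with no overlap.

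Whether an ES-only region kept 5hmC in EB varied with the width of its ES 5hmC region. Over quintiles of the width of the fl/fl 5hmC region, from 337 to 15360 bp, the share on EB 5hmC was 55.7, 65.2, 61.6, 52.3 and 37.7% from the narrowest to the widest. ES-only regions in 5hmC regions of 2292 bp or more thus had EB 5hmC least often. The widest quintile lay below the second by a difference of -27.44 points (interval -28.99 to -25.88). Regions merged when under 1 kb apart gave -18.8 points, which was the smallest size among the alternatives tried. The widths of the Tdg -/- 5hmC regions gave the same order, with 59.4, 67.1, 60.1, 51.4 and 36.4%. Persistent regions also had their lowest share in the widest quintile, at 63.7%, against 92.5% in the second.

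The width of the 5fC region itself, whose bases were the ones counted as overlapping, gave a narrower range: over its quintiles 50, 52.4, 55.1, 55.9 and 53.4% of all ES-only regions lay on EB 5hmC. Regions with and without EB 5hmC had median 5fC widths of 561 and 557 bp, while their fl/fl 5hmC regions had medians of 1270 and 1547 bp.

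The score of the fl/fl 5hmC region showed no steady order. Over its quintiles the share on EB 5hmC was 48.4, 57, 59.1, 58.2 and 49.8%. Against the score rank of the overlapping Tdg -/- 5fC region it was 40.4, 51.4, 58.2, 63 and 59.6%. ES-only regions whose Tdg -/- 5fC ranked low in its list thus lay on EB 5hmC less often than the others. Their own score in the fl/fl 5fC list, over all ES-only regions, gave a narrower range, from 49.3% in the lowest quintile to 58.6% in the highest.

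**Figure D3:**
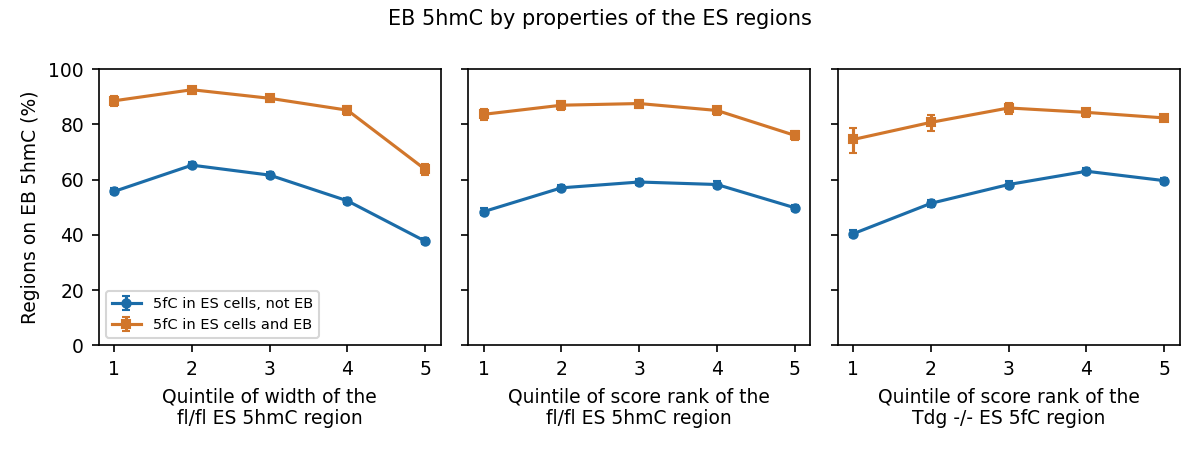
Percent of 5fC regions on fl/fl ES 5hmC that also lay on EB 5hmC (y axis, bars are Wilson 95% intervals) over quintiles (x axis, 1 is lowest) of the width and the score rank of the fl/fl 5hmC region and of the score rank of the Tdg -/- 5fC region. For ES-only regions the share fell to 37.7% in the widest 5hmC regions, and it was 40.4% where Tdg -/- 5fC ranked lowest.

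The 5hmC regions were also counted themselves. Of the 140943 fl/fl ES 5hmC regions, 67048 overlapped EB 5hmC (47.6%). The share was 57.4% (18581 of 32380, interval 56.8 to 57.9) for those holding ES-only 5fC and no persistent 5fC. It was 86.3% of 8142 regions holding persistent 5fC and no ES-only 5fC, 64.9% of 1029 holding both, and 41.5% of 95009 holding no fl/fl 5fC region. It was 30.1% of 4383 regions (interval 28.8 to 31.5) that held only other fl/fl 5fC. Not every class of fl/fl 5fC thus went with a higher share than regions without fl/fl 5fC. 5hmC regions with ES-only 5fC were found again in EB more often than those without fl/fl 5fC or with other fl/fl 5fC. They were found again less often than those with persistent 5fC. Regions without fl/fl 5fC can still hold 5fC of the Tdg -/- or EB lists.

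Regions holding ES-only 5fC were wider than regions without fl/fl 5fC, with medians of 1263 and 898 bp, and ranked higher by score. Within quintiles of 5hmC width the shares were 52.2 against 31.1% in the narrowest, 57.4 against 41.1%, 64.8 against 48.1%, 63.6 against 47.9%, and 50.7 against 43.2% in the widest. The side with ES-only 5fC was higher in each quintile, and the gap was smallest in the widest. With each 5hmC region counted once, the share with ES-only 5fC was thus highest in the middle quintile. It was lower in the narrowest (interval 50.3 to 54.1) and the widest (interval 49.8 to 51.6), whose intervals overlap. Without fl/fl 5fC it was lowest in the narrowest quintile. The bounds of these quintiles were 728, 888, 1104 and 1526 bp, lower than those of the quintiles over ES-only regions above. Score rank still differed within these quintiles, with median percentiles of 41.72 and 18.86 in the narrowest and 90.81 and 73.05 in the widest, and its part in the gap was not tested.

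A 5hmC region could hold several ES-only regions. Of 30461 that held 1, with a median width of 1216 bp, 58.5% overlapped EB 5hmC. Of 2623 that held 2, with a median of 2381 bp, 49.2% did, and of 325 that held 3 or more, with a median of 3972 bp, 38.5% did (interval 33.3 to 43.9). More ES-only 5fC within 1 ES 5hmC region thus went with a lower share on EB 5hmC, and with a wider region.

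Where EB 5hmC was missing, the distance to the nearest EB 5hmC region was read, without other regions to set beside it. For the 16624 ES-only regions on fl/fl 5hmC without EB 5hmC, the nearest EB 5hmC region was 2952 bp away at the median. It was under 1 kb away for 3052 of them (18.4%) and under 10 kb for 88.3%. Where EB 5hmC was present, it mostly covered the 5fC region whole: 19491 of 21012 regions (92.76%) lay inside their EB 5hmC region. The EB 5hmC regions over ES-only 5fC had a median width of 1312 bp and a median score percentile of 60.69 in their list, against 1747 bp and 87.47 for those over persistent 5fC. ES-only 5fC on EB 5hmC thus lay on smaller and lower-ranked EB 5hmC regions than persistent 5fC did. Part of this difference can be built in, because persistent regions have EB 5fC by their definition. In fl/fl ES cells the order was the same. The 5hmC regions there had medians of 1373 bp and percentile 80.97 over ES-only 5fC, against 1518 bp and 87.51 over persistent 5fC.

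The distance to EB 5fC did not order the EB 5hmC share. It was 56.1% for ES-only regions under 1 kb from an EB 5fC region, 49.7% from 1 to 5 kb, 52.5% from 5 to 20 kb, 54.4% from 20 to 50 kb and 57.9% beyond. The lowest value lay at 1 to 5 kb and the ends of the range were close to each other.

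The highest-scoring regions of each class are given as extremes, far above the median score of 96.06 of the ES-only regions. Several lie just below a range of scores, 520.86 to 997.58, in which the fl/fl 5fC list held 0 regions. Among those with 5hmC in all 3 lists, chr9:114421533-114423563 came first, with a 5fC score of 1045.81 and an EB 5hmC region scored 798.78. It was 612 bp from the nearest EB 5fC region. It was followed by chr8:123901648-123902801 (5fC score 519.32, EB 5hmC score 101.87) and chr3:94840329-94840887 (518.09 and 218.63). Scores of different lists depend on their depth, so they are set side by side only as the authors' values.

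Among those with 5hmC in both ES lists and not in EB, chr9:102091490-102092239 came first with a 5fC score of 520.82. Its nearest EB 5hmC region was 4521 bp away and its nearest EB 5fC region 100812 bp away. The next, chr4:140863516-140866331 (519.05), lay in a Tdg -/- 5fC region of 10354 bp and a Tdg -/- 5hmC region of 12403 bp, and EB 5hmC came within 155 bp of it. At chr7:30172076-30173390 (515.71) EB 5hmC was 1672 bp away. The 3 lay at distances from EB 5hmC below and above the median of their class.

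Regions without any 5hmC scored lower: the highest were chr9:24346386-24346733 (302.34), chr15:74915889-74917567 (240.52) and chr8:24205699-24206365 (235.25). The 615 regions of this class had a median width of 409 bp and a median score of 75.45.

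A minority of ES-only 5fC regions lay on p300 in ES cells, more of them in Tdg -/- cells than in fl/fl cells. In fl/fl cells 2772 overlapped p300 (7.04%, interval 6.79 to 7.3), against 7.62% of the whole 5fC list. In Tdg -/- cells 4629 did so (11.8%, interval 11.4 to 12.1), against 11.9% of the whole list. With each list limited to scores from its median up, Tdg -/- p300 was at 5.85% of ES-only regions. The whole list consists mostly of ES-only regions, so its shares lie near theirs. Regions in the fl/fl list alone had p300 less often, at 2.28% in fl/fl and 4.51% in Tdg -/- cells, and persistent regions more often. The Tdg -/- p300 list was longer, with 43345 regions against 32160, and how much of the higher share that accounts for was not tested.

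By both lists, 1916 ES-only regions (4.87%) had p300 in both genotypes, 2713 (6.89%) in Tdg -/- cells alone and 856 (2.17%) in fl/fl cells alone. The remaining 33895 (86.1%) had none. Over the whole fl/fl 5fC list, 5.09% of regions had p300 in both genotypes. p300 in either genotype was at 14.4% of the whole list and 13.9% of ES-only regions, so these shares lie near each other. From the side of p300, 4410 Tdg -/- p300 regions held an ES-only region, and 2417 of these had no fl/fl p300 region (54.8%, interval 53.3 to 56.3), against 42.2% of the whole Tdg -/- p300 list. The share was 50.3% of 1740 for p300 regions holding persistent 5fC. In the other direction, 2653 fl/fl p300 regions held an ES-only region, and 727 of these had no Tdg -/- p300 region (27.4%, interval 25.7 to 29.1), against 21.6% of the whole fl/fl p300 list and 38.5% of 1366 holding persistent 5fC. In both lists, p300 regions holding ES-only 5fC were thus missing from the other genotype more often than p300 regions of the list in general. The p300 regions at ES-only 5fC had median score percentiles of 42.22 in the fl/fl list and 43.38 in the Tdg -/- list. At persistent 5fC these were 38.27 and 38.76. The part of p300 score in these shares was not tested.

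Persistent regions lay on p300 more often, at 13.8% in fl/fl cells and 17.7% in Tdg -/- cells. The ES-only shares differed from these by -6.74 points (interval -7.47 to -6.03) and -5.92 points (interval -6.74 to -5.12). The first difference was below 0 on 19 chromosomes and the second on 20 of 20. With width and score of the 5fC regions weighted to the same mix they were -6.44 and -5.8 points.

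p300 and 5fC also coincided less closely at ES-only regions. Centres of ES-only regions were counted around the centres of p300 regions and given for each 200 bp and 1000 ES-only regions. Around fl/fl p300 the count was 15.22 within 200 bp, 7.161 from 200 to 400 bp, 6.501 from 400 to 600 bp and 8.735 from 2000 to 3000 bp. Around Tdg -/- p300 the counts over the same distances were 28.82, 12.19, 9.573 and 11.41. ES-only 5fC thus had a narrow peak at p300 centres in both lists. At 400 to 600 bp the level was below that at 2000 to 3000 bp in both, and at 200 to 400 bp it was below it for fl/fl p300 and above it for Tdg -/- p300.

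At persistent regions the counts within 200 bp were 36.19 around fl/fl p300 and 46.58 around Tdg -/- p300, and at 2000 to 3000 bp they were 7.933 and 10.49. Both classes thus had like levels away from p300 and differed at its centre. Among ES-only regions, those with and without EB 5hmC had 16.37 and 13.91 within 200 bp of fl/fl p300, and 29.77 and 27.74 within 200 bp of Tdg -/- p300.

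**Figure D4:**
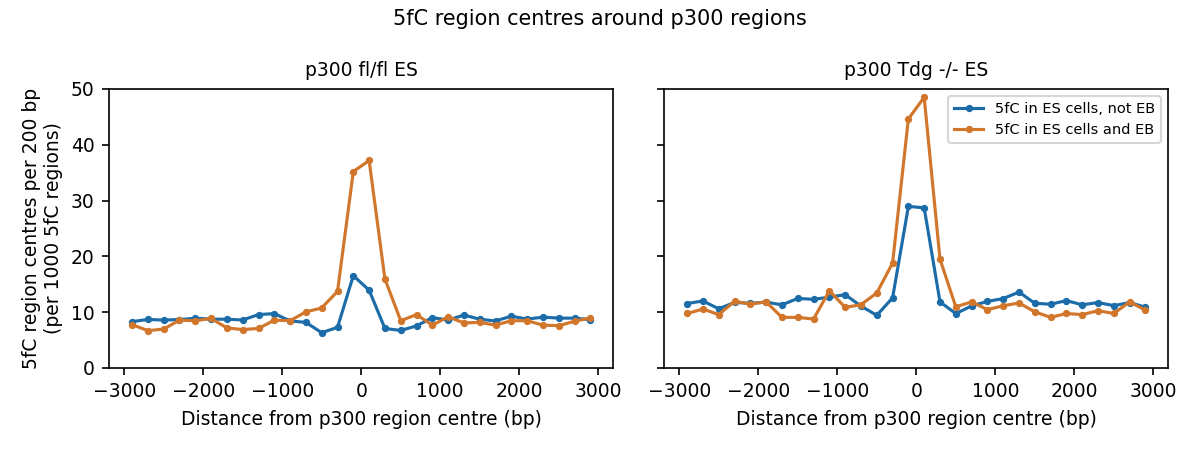
Centres of 5fC regions for each 200 bp and 1000 regions of their class (y axis) by distance from the centre of p300 regions (x axis, bp), for p300 of fl/fl and of Tdg -/- ES cells. ES-only regions peak at the p300 centre in both panels, at 15.22 and 28.82 within 200 bp, below the persistent regions at 36.19 and 46.58.

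p300 in ES cells barely separated the ES-only regions that kept 5hmC in EB from those that did not. Among those on fl/fl ES 5hmC, Tdg -/- p300 was at 12.1% of the 16624 without EB 5hmC and 11.1% of the 19924 with it. The difference was 0.953 points (interval 0.294 to 1.61) and was above 0 on 15 of 20 chromosomes. It was 0.236 points when a region counted as overlapping only by its centre. fl/fl p300 was at 6.85 and 6.76% of these regions, 0.0848 points apart (interval -0.432 to 0.605). The shares were also read the other way, again among ES-only regions on fl/fl ES 5hmC. EB 5hmC was at 51.9% of those with p300 in both genotypes and 52.8% with Tdg -/- p300 alone. It was at 59.1% with fl/fl p300 alone and 54.7% with none.

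The p300 share rose with the rank of 5fC in Tdg -/- cells. Among ES-only regions on fl/fl 5hmC, Tdg -/- p300 was at 6.66, 8.92, 11.2, 14.2 and 16.7% over quintiles of the Tdg -/- 5fC score rank, and fl/fl p300 rose from 3.34 to 11.1%. It also rose with the width of the 5fC region, from 9.98 to 15.3% for Tdg -/- p300 and from 5.87 to 9.71% for fl/fl p300, and a wider region has more bases that can overlap. Nearness to EB 5fC went with p300 as well: under 1 kb from EB 5fC, 9.52% of ES-only regions were on fl/fl p300 and 13.7% on Tdg -/- p300, against 5.89 and 9.98% beyond 50 kb. ES-only regions near a site with 5fC in EB thus had p300 more often.

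By chromosome, fl/fl p300 was at 5.51 to 9.19% of ES-only regions on the autosomes and at 0 of the 76 on X, a number too small to set beside the autosomes. Tdg -/- p300 was at 8.8 to 14.5% on the autosomes other than chromosome 11. On chromosome 11 the order of the genotypes was turned, with 166 of 1806 regions on fl/fl p300 and 122 on Tdg -/- p300. The p300 lists themselves were turned there, with 2728 regions in fl/fl cells and 2147 in Tdg -/- cells, a ratio of 0.787, against ratios of 1.34 to 1.51 on the other 19 chromosomes. Without chromosome 11, Tdg -/- p300 was at 12% of ES-only regions.

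**Figure D5:**
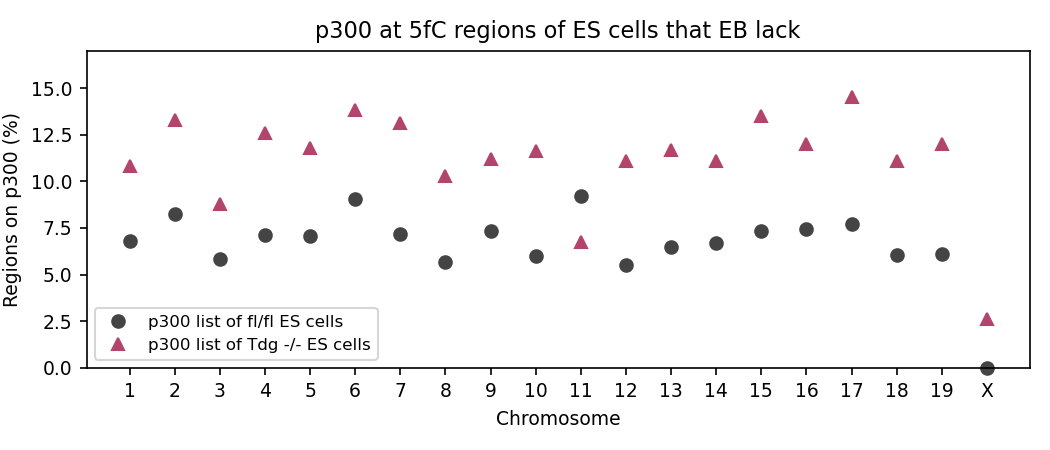
Percent of ES-only 5fC regions on p300 of fl/fl ES cells (circles) and of Tdg -/- ES cells (triangles) (y axis), by chromosome (x axis). Triangles lie above circles on each chromosome but 11, where the shares were 6.76% for Tdg -/- and 9.19% for fl/fl p300.

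The highest-scoring ES-only regions with p300 in both genotypes were 3. At chr2:59077830-59078505 (5fC score 509.86) the p300 scores were 109.95 in fl/fl and 208.24 in Tdg -/- cells, and the EB 5hmC score was 67.58. At chr2:173070475-173072803 (509.32) they were 67.61 and 161.16, with no EB 5hmC region nearer than 565 bp. At chr4:142917190-142918619 (508.17) they were 189.79 and 90.52, and the EB 5hmC score was 65.28. Of these 3 regions, 2 had an EB 5hmC region, with scores near 50, the lowest of the EB 5hmC list.

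With p300 in Tdg -/- cells alone, the highest was chr4:133419091-133422106 (5fC score 1030.24), whose p300 score of 50.18 was just above the lowest of the list. It had no fl/fl 5hmC region. The next were the regions on chromosomes 8 and 4 named above, chr8:123901648-123902801 with a Tdg -/- p300 score of 69.52 and chr4:140863516-140866331 with 302.33. Of the 3, the region on chromosome 8 kept 5hmC in EB.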

How the data were processed

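Used here were 8 region lists, each pooled over the replicates of its group per the labels, and 2 tables of FPKM values, all deposited by the authors. Per the file headers of the 5fC and 5hmC lists of ES cells, a region's deposited score is the log10 of a p-value multiplied by -10. The other lists have no header, and their scores were taken to be of that kind. Scores grow with depth, so they only ranked or filtered regions within a list. MACS 1.4, TopHat 1.4.1, Cufflinks 1.3.0 and mm9 are named in the submitters' processing notes. The threshold of the calls, and whether starts count from 0 or 1, are not given in the sources used here.

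Overlap meant at least 1 shared bp. Shares have Wilson 95% intervals and differences of shares Newcombe intervals. Percentiles rank a region within its list, and of several overlapping regions 1 was taken. The regions named are the 3 with the highest fl/fl 5fC score in each of 5 classes by 5hmC and p300, and the 3 nearest the rule's limit on either side. The members and lists were chosen with earlier results of these data known. The overlap code was tested on simulated regions. Input, control enrichments without NaBH4 and H3K4me1 libraries were not analysed here, and regions prone to false signal were not removed. No genome of the mm9 build was used, so regions were not placed in genes. Python 3.11.15, numpy 2.4.6, pandas 2.3.3, scipy 1.17.1 and matplotlib 3.10.9 were used.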

Additional observations from a re-analysis of the deposited data

How the results depend on the processing

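Of 51 values under alternatives, 29 stayed within the interval of the reported value or within 1.5 times its count, 22 moved and 0 reversed. With each list limited to its higher-scoring regions, from the median score up, ES-only regions numbered 19962. EB 5hmC was then at 43.1% of them and at 44.1% of those on fl/fl 5hmC, the difference from persistent regions was -34.7 points, Tdg -/- p300 was at 5.85%, and the widest quintile of 5hmC width lay at -31.8 points. Merging regions under 1 kb apart gave 55.8, 57, -27.1, 12.4 and -18.8 for the same quantities after the number. One score minimum for all lists gave 55.9, 56.8, -27.4, 12.2 and -29.3. Overlap by the centre gave -29.8 points against persistent regions, 9.59% on Tdg -/- p300 and 0.236 points for p300 without minus with EB 5hmC. Requiring most of the region's bases to be covered gave -29.9, 9.56 and 0.181. The number of ES-only regions otherwise lay between 33100 and 40009. A margin of 1 kb around EB 5fC, leaving out chromosome 11 and weighting for width and score moved no value beyond its interval. The causes of these moves were not tested. The alternatives for 5hmC width were chosen after seeing the data. No paired analysis was possible because each list pools its libraries. Unknown depth limits all absences: a region missing from a list may lie below its threshold.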

Other observations

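The few ES-only 5fC regions with 5hmC in EB alone lay on p300 more often than those with 5hmC in all 3 lists or in none. Of these 217, 45 were on fl/fl p300 (20.7%, interval 15.9 to 26.6) and 57 on Tdg -/- p300 (26.3%, interval 20.9 to 32.5). ES-only regions with 5hmC in all 3 lists had 6.7 and 11%, and those without 5hmC in any list 7.97 and 13.8%. The 195 with 5hmC in fl/fl ES cells and EB, not in Tdg -/- cells, had 12.8% (interval 8.84 to 18.2) and 21% (interval 15.9 to 27.3). Their intervals overlap those of the 217, so high p300 shares were not particular to EB alone. The 82 persistent regions with 5hmC in EB alone had 29.3% (interval 20.5 to 39.9) and 36.6% (interval 27 to 47.4), and the 29 persistent regions without any 5hmC had 34.5% (interval 19.9 to 52.7) and 37.9% (interval 22.7 to 56). Among persistent regions the intervals of these classes overlap. The 217 regions were narrow, with a median width of 426 bp. They were singled out after their values were seen.

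Neighbouring ES-only regions under 2 kb apart had the same EB 5hmC state in 75.4% of 7228 pairs. Pairs in different fl/fl 5hmC regions at that distance had it in 61.8% of 4043 (interval 60.3 to 63.3). Farther apart, the share over all pairs was between 51.1 and 54%.

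The fl/fl ES 5fC list held 0 regions with scores between 520.86 and 997.58 and 12 at or above, while the Tdg -/- 5fC list held 6838 between these scores and 1810 above. Of the 12, 6 were ES-only regions. Of those 6, 1 lay on fl/fl 5hmC, 6 on Tdg -/- 5hmC and 4 on EB 5hmC, against 187, 199 and 122 of the 200 ES-only regions next below. The 3 with the highest scores were chr2:168579638-168582466 (1756.43), chr5:109979145-109982354 (1656.71) and chr4:141028675-141032677 (1486.64). The gap and these regions were found after the values were seen, and how regions came to be missing between these scores was not tested.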
